A study of Mus musculus with 5 samples.

Results

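Zfp promoters were examined in promoter capture Hi-C of the supporting cells of the fetal mouse gonad. The members were all baits on chromosomes 1 to 9 whose name holds a gene symbol made of Zfp and a number, and only contacts within a chromosome (cis) were counted. In all, 181 Zfp genes had a bait with a listed contact, of 8669 genes so represented. The table with single-fragment baits held 143 Zfp baits of 7674, and the table with baits of about 5 kb held 239 Zfp baits of 11063. All 181 symbols were found on the same chromosome in the RefSeq gene table of GRCm38.p6, which lists 247 Zfp genes on these chromosomes. Other chromosomes were left out here.

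Most genes with this name encode proteins whose C2H2 zinc fingers read DNA sequence, and many carry a KRAB domain that recruits the corepressor Trim28 (KAP1) and with it the H3K9 methyltransferase Setdb1. They silence transposable elements and some genes, and they lie in tandem arrays that arose by local duplication. The name alone decides membership here, so Zfp36, an RNA-binding protein with fingers of another type that promotes mRNA decay, is a member, and related KRAB genes with other names are not.

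Sertoli cells came from gonads at embryonic day E13.5 of Sox9IRES-GFP mice, in which GFP marks cells that express Sox9, the gene that directs testis differentiation. Pre-granulosa cells came from gonads of the same age carrying the Enh8-mCherry reporter. The labels describe 3 Sertoli and 2 pre-granulosa libraries of about 100000 sorted cells each, cut with DpnII. Each table gives 1 CHiCAGO score per cell type and contact, so there was no spread between libraries to measure and no test of a difference was possible. CHiCAGO scores rise as the read pairs of a bait and a bin exceed the number their distance predicts, and a contact was called at a score of at least 5. The tables list only contacts called in at least 1 cell type. Shares carry 95% Wilson intervals, which cover counting error only and are too narrow where bins neighbour each other or share a bait. Library depth is unknown, and the identity of the sorted cells could not be checked, since the tables hold no expression values.

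Promoters of 6 Zfp genes that take part in high-scoring promoter contacts described later are shown as examples, from the RefSeq windows of GRCm38.p6, which run from 250 bases before to 50 after a transcription start. Capitals mark CG dinucleotides. The pairs are Zfp420 with Zfp30 and with Zfp27 in the largest cluster, Zfp553 with Zfp771, and Zfp324 with Zfp446, for which only the first sequence is printed. Zfp420 lies at chr7:29859762-29860061 (+ strand), Zfp30 at chr7:29783718-29784017 (+ strand), Zfp27 at chr7:29906055-29906354 (- strand), Zfp553 at chr7:127232811-127233110 (+ strand), Zfp771 at chr7:127244276-127244575 (+ strand) and Zfp324 at chr7:12965588-12965887 (+ strand). Each window lies inside the 5 kb bait of its gene.
Zfp420: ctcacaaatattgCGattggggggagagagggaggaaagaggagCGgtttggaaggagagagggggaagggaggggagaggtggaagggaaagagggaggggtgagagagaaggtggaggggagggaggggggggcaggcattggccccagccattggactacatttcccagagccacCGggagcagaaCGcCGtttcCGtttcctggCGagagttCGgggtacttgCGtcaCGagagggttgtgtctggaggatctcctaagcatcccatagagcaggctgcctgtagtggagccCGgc
Zfp30: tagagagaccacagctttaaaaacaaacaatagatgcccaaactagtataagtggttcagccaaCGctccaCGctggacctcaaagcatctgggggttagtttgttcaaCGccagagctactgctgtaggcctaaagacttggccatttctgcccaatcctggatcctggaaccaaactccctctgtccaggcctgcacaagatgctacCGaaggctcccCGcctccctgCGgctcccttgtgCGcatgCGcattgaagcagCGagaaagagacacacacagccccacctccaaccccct
Zfp27: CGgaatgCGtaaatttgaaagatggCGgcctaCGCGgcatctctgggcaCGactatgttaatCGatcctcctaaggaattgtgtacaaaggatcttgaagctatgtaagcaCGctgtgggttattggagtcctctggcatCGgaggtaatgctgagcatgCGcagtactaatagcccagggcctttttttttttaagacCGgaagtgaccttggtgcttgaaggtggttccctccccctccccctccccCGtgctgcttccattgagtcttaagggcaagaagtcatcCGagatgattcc
Zfp553: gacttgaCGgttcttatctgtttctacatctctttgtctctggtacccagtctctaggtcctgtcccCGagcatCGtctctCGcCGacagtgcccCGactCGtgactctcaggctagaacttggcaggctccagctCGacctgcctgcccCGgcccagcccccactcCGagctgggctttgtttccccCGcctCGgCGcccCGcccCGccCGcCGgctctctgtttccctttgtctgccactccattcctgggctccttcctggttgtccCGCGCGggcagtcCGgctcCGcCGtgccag
Zfp771: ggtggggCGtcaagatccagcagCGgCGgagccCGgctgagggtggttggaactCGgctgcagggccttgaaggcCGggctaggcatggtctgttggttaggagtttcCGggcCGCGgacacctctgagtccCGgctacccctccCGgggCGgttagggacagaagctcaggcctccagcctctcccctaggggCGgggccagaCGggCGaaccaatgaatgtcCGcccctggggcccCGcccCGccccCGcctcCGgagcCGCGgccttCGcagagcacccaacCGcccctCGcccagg
Zfp324: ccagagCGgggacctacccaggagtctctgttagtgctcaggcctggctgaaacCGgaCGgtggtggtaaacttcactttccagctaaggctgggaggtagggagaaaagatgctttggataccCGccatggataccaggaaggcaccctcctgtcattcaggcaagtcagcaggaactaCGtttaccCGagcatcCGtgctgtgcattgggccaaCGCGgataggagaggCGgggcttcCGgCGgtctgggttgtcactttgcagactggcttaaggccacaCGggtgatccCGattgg
These windows hold 11, 9, 13, 23, 25 and 14 CG dinucleotides in the order printed. A further RefSeq window of Zfp27 inside the same bait, at chr7:29906483-29906782, is not printed and holds 1 CG. The Zfp553 and Zfp771 promoters, which form the highest-scoring Zfp pair, are the richest of the 6. Over 197 RefSeq windows of 160 Zfp members the median was 16 CG, against 7 over all 18612 windows on chromosomes 1 to 9 and 1 over 640 windows of olfactory receptor (Olfr) genes, another family in tandem arrays. Every Zfp window held at least 1 CG, whereas 1033 of all windows held 0. The letters ACTACAANT, a piece of the motif bound by the promoter factor Zfp143, were found on either strand in 11 of 197 Zfp windows (5.58%, interval 3.15 to 9.72%) and in 289 of all windows (1.55%). None of the 6 printed windows holds these letters. This motif was chosen with its link to promoters known, and a match describes letters only.

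The first question was how Zfp promoters share their contacts between the cell types. With single-fragment baits, 596 contacts of Zfp promoters were listed, with 459 Sertoli calls and 284 pre-granulosa calls. Sertoli calls made up 77.0% of the listed Zfp contacts (interval 73.5 to 80.2%), and 80.2% of all listed contacts. Pre-granulosa calls made up 47.7% (43.7 to 51.7%), against a background of 41.5%. Zfp promoters thus had 1.62 Sertoli calls per pre-granulosa call, and the other baits had 1.94. Both cell types called 147 Zfp contacts, 24.7% (21.4 to 28.3%) of those listed, with a background of 21.7%. A further 312 were called in Sertoli cells alone and 137 in pre-granulosa cells alone. Of the 312, 115 had a pre-granulosa score between 3 and 5, and of the 137, 76 had a Sertoli score in that range. Over all baits these counts were 5757 of 16966 and 2771 of 5734.

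The Sertoli excess depended on how calls were counted. The labels give 3 libraries for Sertoli and 2 for pre-granulosa cells, so in every count of calls, by cluster and by bait too, cell type and number of libraries cannot be told apart. When the 12025 highest scores of each cell type over all baits were taken instead, which raised the Sertoli threshold to 6.42, Zfp promoters held 217 Sertoli and 284 pre-granulosa contacts, a ratio of 0.764. The same selection gave the other baits a ratio of 1.01. At this equal number of contacts, Zfp promoters therefore leaned to the pre-granulosa table. A higher threshold for both cell types kept the Sertoli excess, with 171 Sertoli and 100 pre-granulosa calls at 7 and 64 and 21 at 10. At the fixed threshold of 5, baits of Olfr genes, which encode smell receptors, had 0.757 Sertoli calls per pre-granulosa call, against 1.62 for Zfp baits. The Olfr ratio at equal numbers of contacts was not computed. With 5 kb baits, 1136 Zfp contacts were listed, with 856 Sertoli calls (75.4%, background 78.7%) and 687 pre-granulosa calls (60.5%, background 55.9%). Here 407 (35.8%, interval 33.1 to 38.7%) were called in both, against a background of 34.6%.

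Promoter by promoter, 89 of 143 Zfp baits had more Sertoli than pre-granulosa calls, 34 had more pre-granulosa calls and 20 had equal numbers. Those are 62.2% and 23.8%, close to the backgrounds of 65.2% and 22.0% over all baits. The Zfp baits of chromosome 6 had 13 Sertoli and 17 pre-granulosa calls, and those of chromosome 7 had 216 and 117. Distances were short. Sertoli calls of Zfp baits had a median distance of 33.9 kb (interval 28.0 to 40.1 kb), below the 42.9 kb (41.6 to 44.2 kb) of other baits, and pre-granulosa calls had 26.1 kb (21.2 to 34.2 kb), against 26.0 kb (25.0 to 27.3 kb). The lower Sertoli median was not seen with 5 kb baits, where it was 47.8 kb (43.3 to 52.6 kb) against 48.0 kb (47.4 to 48.4 kb). In pre-granulosa cells the Zfp median was then the longer, at 43.0 kb (38.5 to 47.8 kb) against 37.8 kb (37.5 to 38.2 kb). With single-fragment baits 26 Sertoli and 10 pre-granulosa calls spanned more than 200 kb, which is 5.66% and 3.52% of the Zfp calls against 6.99% and 5.06% over all baits. Of the 26, 18 came from baits on chromosome 2.

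**Figure D1:**
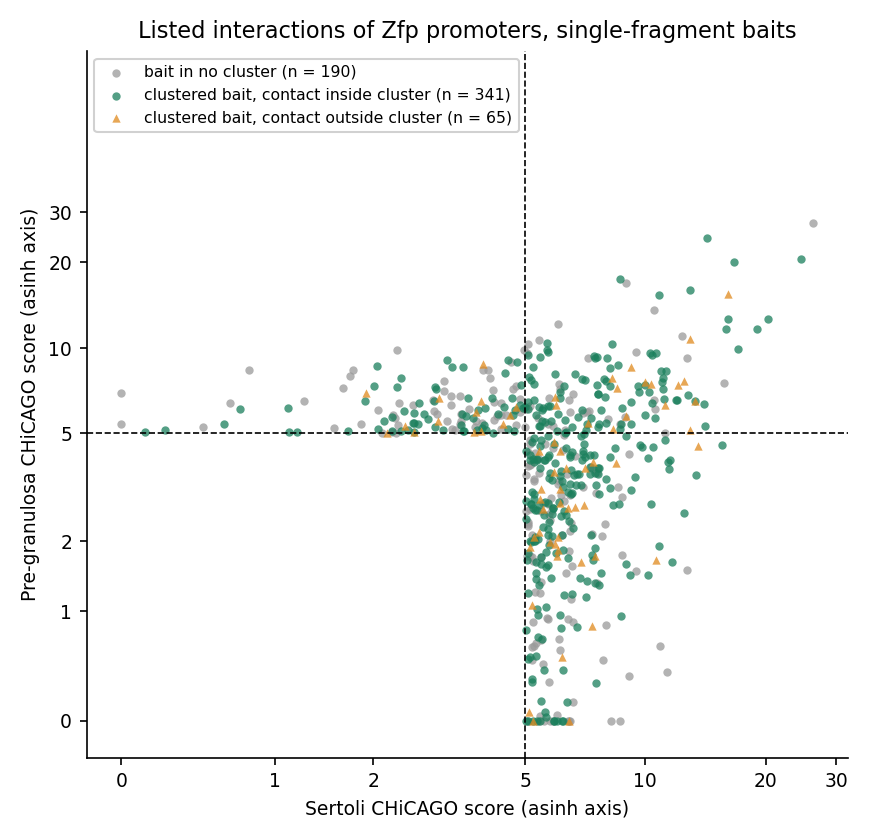
Sertoli (x axis) against pre-granulosa (y axis) CHiCAGO scores of the 596 listed contacts of Zfp promoters with single-fragment baits, both axes on an asinh scale; dashed lines mark the call threshold of 5. Colours separate 341 contacts inside the bait's own Zfp cluster, 65 that leave it and 190 of baits in no cluster; the lower left quadrant is empty because such contacts are not listed.

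Zfp genes were next grouped by position. Zfp symbols at most 500 kb from the next were joined, and groups of at least 3 symbols were called clusters. This gave 20 clusters with 111 of the 181 symbols, 10 of them with 70 symbols on chromosome 7. Spans ran from 64.5 to 791 kb, with a median of 339 kb. Of the single-fragment baits, 85 belonged to a cluster and 58 did not. Clustered baits had 406 listed contacts, with 327 Sertoli and 193 pre-granulosa calls, and 28.1% (23.9 to 32.6%) were called in both cell types. Baits outside clusters had 190 listed contacts, with 132 and 91 calls, and 17.4% (12.6 to 23.4%) were called in both. The share was thus higher for clustered Zfp promoters than for those outside clusters, some of which lie near 1 other Zfp gene. Over all baits it was 21.7%. The intervals nearly met, and they are too narrow since contacts share baits. The Zfp553 to Zfp668 cluster alone held 33 of the 114 contacts of clustered baits called in both cell types, and 99 of the 406 listed. The shares were not compared without it. With 5 kb baits the shares were 39.7% (36.2 to 43.3%) for clustered baits and 28.6% (24.4 to 33.3%) for the others, against 34.6% over all baits.

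Contacts of clustered Zfp promoters stayed mostly inside the cluster in both cell types. Of the Sertoli calls, 276 of 327 (84.4%, interval 80.1 to 87.9%) ended inside the bait's own cluster, and of the pre-granulosa calls 162 of 193 (83.9%, 78.1 to 88.4%). With 5 kb baits the shares were 74.2% (70.4 to 77.6%) and 77.5% (73.5 to 81.1%). How much of these shares the short distances alone would give was not tested. Baits of the first and last gene of each cluster show less of a lean. In Sertoli cells their calls pointed into the cluster 41 times and away from it 30 times (57.7% inwards, 46.2 to 68.5%), and in pre-granulosa cells 31 and 22 times (58.5%, 45.1 to 70.7%). Both intervals include an even split.

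The Zfp553 to Zfp668 cluster on chromosome 7 had the most listed contacts, 99, with 90 Sertoli and 42 pre-granulosa calls. Its 9 members are Zfp553, Zfp771, Zfp747, Zfp764, Zfp688, Zfp689, Zfp629, Zfp646 and Zfp668, interspersed with 22 other protein-coding genes. The Zfp84 to Zfp146 cluster followed with 64 listed contacts, 49 Sertoli and 28 pre-granulosa calls, and holds 15 Zfp genes and 0 other protein-coding genes. Zfp607b to Zfp36, with Zfp60, Zfp626, Zfp59, Zfp607a, Zfp974, Zfp780b and Zfp850 between them, had 35 Sertoli and 14 pre-granulosa calls. Zfp26 to Zfp846 on chromosome 9, with Zfp426 and Zfp266, had 22 and 20. These 4 clusters differed in balance, from more than 2 Sertoli calls per pre-granulosa call to near equality.

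The other clusters were smaller in calls. Sertoli calls outnumbered pre-granulosa calls in 12 of the 20 clusters, the reverse held in 5, and 3 were equal. Zfp335 to Zfp334 (22 Sertoli, 6 pre-granulosa calls), Zfp982 to Zfp933 (22 and 9), Zfp653 to Zfp810 (24 and 15), Zfp12 to Zfp853 (10 and 5) and Zfp954 to Zfp772 (6 and 2) had more Sertoli calls. So did Zfp787 to Zfp28 (8 and 6), Zfp551 to Zfp446 (10 and 9) and Zfp112 to Zfp428 (6 and 4). Pre-granulosa calls were more frequent in Zfp786 to Zfp775 (8 Sertoli, 10 pre-granulosa), Zfp628 to Zfp580 (5 and 7), Zfp930 to Zfp963 (3 and 5), Zfp141 to Zfp975 (0 and 3) and Zfp709 to Zfp961 (1 and 2). Equal calls were found in Zfp113 to Zfp68 (4 each), Zfp120 to Zfp442 (1 each) and Zfp715 to Zfp819 (1 each). Most of these counts are too small to rank the clusters. In the table of 5 kb baits, 15 clusters had more Sertoli calls, 4 had more pre-granulosa calls and 1 was equal. There the balance turned in Zfp628 to Zfp580 (35 Sertoli, 25 pre-granulosa calls), Zfp930 to Zfp963 (13 and 8) and Zfp551 to Zfp446 (26 and 34). Single clusters departed from the high inside share. In Zfp930 to Zfp963 all 5 contacts listed for its 1 bait left the cluster, in Zfp113 to Zfp68 3 of 7 listed contacts lay inside, in Zfp954 to Zfp772 3 of 6, in Zfp141 to Zfp975 1 of 3, and in Zfp120 to Zfp442 and Zfp715 to Zfp819 1 of 2 each.

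**Figure D2:**
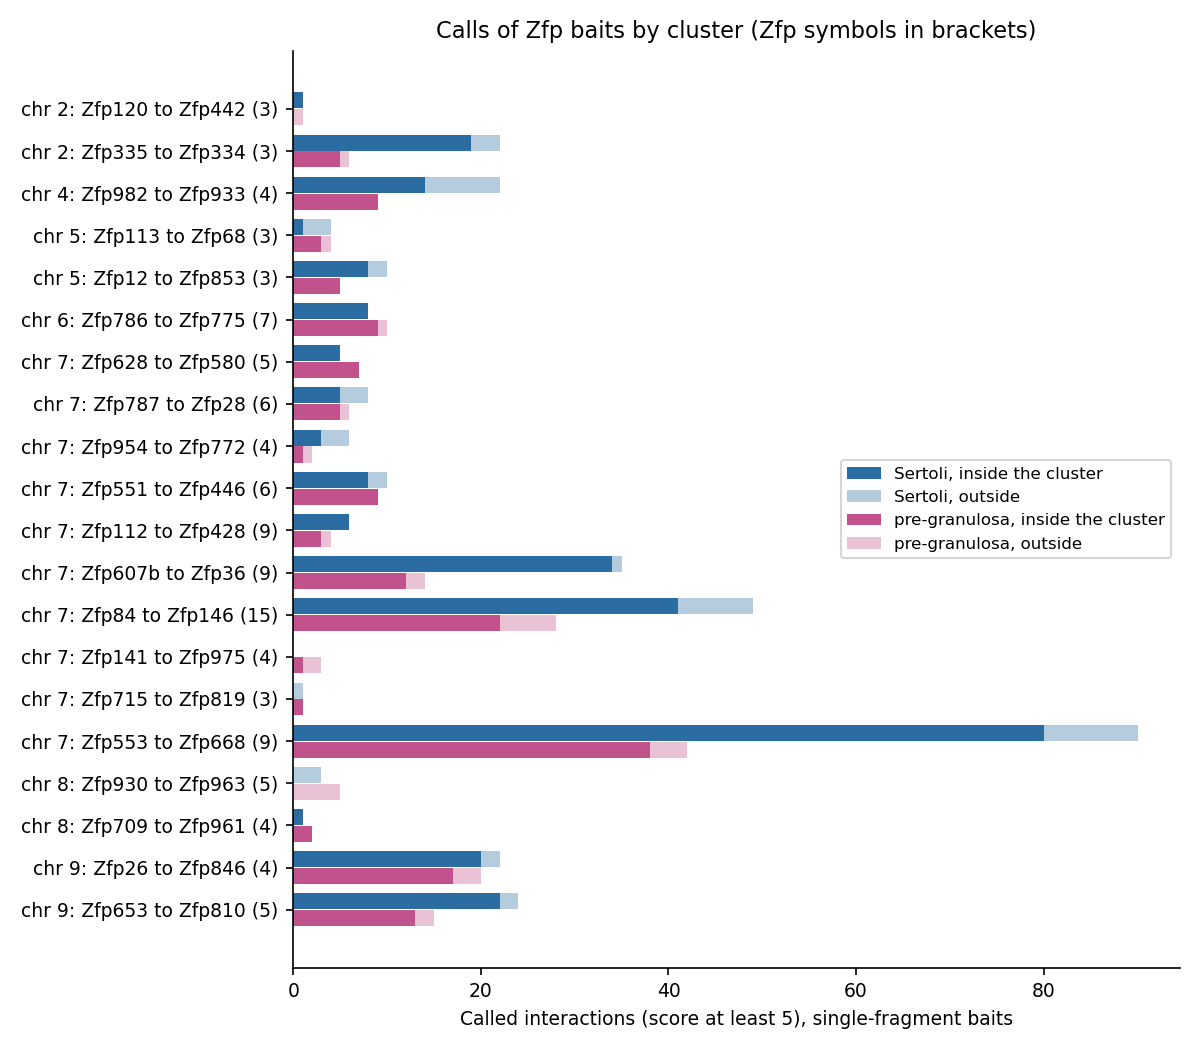
Number of called contacts (x axis) of single-fragment Zfp baits in each of the 20 clusters, named by first and last Zfp gene with the number of Zfp symbols in brackets, for Sertoli (blue) and pre-granulosa cells (pink). Dark bars are contacts inside the cluster and pale bars those that leave it; the Zfp553 to Zfp668 cluster leads with 80 Sertoli calls inside and 10 outside.

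What the clustered promoters touched differed between the tables. Each called bin was assigned to the bait's own gene, another Zfp gene, another protein-coding gene or none, from RefSeq gene bodies. With single-fragment baits, 74 of 327 Sertoli calls of clustered baits (22.6%, 18.4 to 27.5%) fell on another Zfp gene, and 40 of 193 pre-granulosa calls (20.7%, 15.6 to 27.0%). Bins without a protein-coding gene were the largest class, at 37.6% (32.5 to 43.0%) and 40.4% (33.7 to 47.5%). Other genes took 21.4% and 15.5%, and the bait's own gene 18.3% and 23.3%. In that table bins exclude the bait fragments themselves, so a promoter can be met only through its surroundings. With 5 kb baits, which allow promoter-to-promoter pairs, 46.8% of Sertoli calls (42.7 to 50.9%) and 48.3% of pre-granulosa calls (43.7 to 52.8%) fell on another Zfp gene, and 28.3% and 26.2% on other genes. A promoter pair can be listed there from either bait or from both, so some pairs count more than once and the intervals are too narrow. The share of Zfp genes among all bins that could be met was not computed. Zfp baits outside clusters met another Zfp gene in 2.47% and 3.06% of their calls in the same table.

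To compare Zfp pairs with other promoters in classes of distance, all pairs of 5 kb baits 10 to 500 kb apart were counted. A pair took the higher score of its 2 possible listings in each cell type. At 10 to 50 kb, Zfp promoters of the same cluster were called in 70 of 107 pairs in Sertoli cells (65.4%, 56.0 to 73.8%) and in 54 pairs in pre-granulosa cells (50.5%, 41.1 to 59.8%). A Zfp promoter and a promoter of another gene in the same cluster were called in 28 of 83 pairs (33.7%, 24.5 to 44.4%) and in 25 pairs (30.1%, 21.3 to 40.7%). Pairs of other genes in the same clusters were called in 54.4% (46.4 to 62.2%) and 47.0% (39.1 to 55.0%) of 149 pairs. Promoter pairs without any Zfp gene, over all 9 chromosomes, were called in 47.6% (46.7 to 48.5%) and 40.8% (39.9 to 41.7%) of 11566 pairs. The shares of Zfp pairs lay above those of mixed pairs of the same clusters in both cell types, by a narrow margin between the intervals in pre-granulosa cells. In Sertoli cells the interval lay above that of promoter pairs without Zfp genes, while it overlapped that of other genes in the same clusters. In pre-granulosa cells it overlapped both. The median distance within this class was 32.5 kb for Zfp pairs and 31.8 kb for mixed pairs. For pairs of other genes in the same clusters it was 26.7 kb, so these lay closer together and were not matched to Zfp pairs. Pairs share baits, and baits with 0 listed contacts are missing from the count.

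Farther apart the shares fell, and their order was not the same in every class. At 50 to 100 kb, Zfp pairs were called in 37.5% (28.5 to 47.5%) in Sertoli and 32.3% (23.8 to 42.2%) in pre-granulosa cells, mixed pairs in 30.6% (23.1 to 39.3%) and 16.5% (11.0 to 24.2%), and pairs without Zfp genes in 23.8% and 16.5%. At 100 to 200 kb the Zfp shares were 17.8% (12.2 to 25.1%) and 13.3% (8.60 to 20.1%), against 8.59% and 6.06% for mixed pairs and 10.2% and 6.27% without Zfp genes. Beyond 200 kb, 5 of 130 Zfp pairs had a Sertoli call (3.85%) and 4 a pre-granulosa call, and pairs of other genes in the same clusters had a Sertoli call in 5.26%. All 5 of those Sertoli calls came from the Zfp84 to Zfp146 cluster, since without it 0 of 95 pairs were called, which allows a share of up to 3.16% by the limit of 3 counts and up to 3.89% by the Wilson interval. In Sertoli cells the 10 to 50 kb share of Zfp pairs was 61.9% (51.2 to 71.6%) without that cluster, and 63.6% (51.6 to 74.2%) in the clusters that also hold other genes, above the interval of mixed pairs in both cases. In pre-granulosa cells it was 46.4% (36.2 to 57.0%) and 43.9% (32.6 to 55.9%), and both intervals overlapped those of mixed pairs (21.3 to 40.7% and 20.5 to 39.9%). At a threshold of 7, chosen after seeing the data, the intervals of Zfp and mixed pairs overlapped in both cell types, at 34.0 to 52.5% and 18.2 to 36.9% for Sertoli calls and at 23.7 to 41.1% and 14.2 to 31.7% for pre-granulosa calls. Olfr pairs 10 to 50 kb apart were called in 36.9% (34.8 to 39.0%) and 41.0% (38.9 to 43.2%) of 1953 pairs, and in pre-granulosa cells this interval overlapped that of Zfp pairs.

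**Figure D3:**
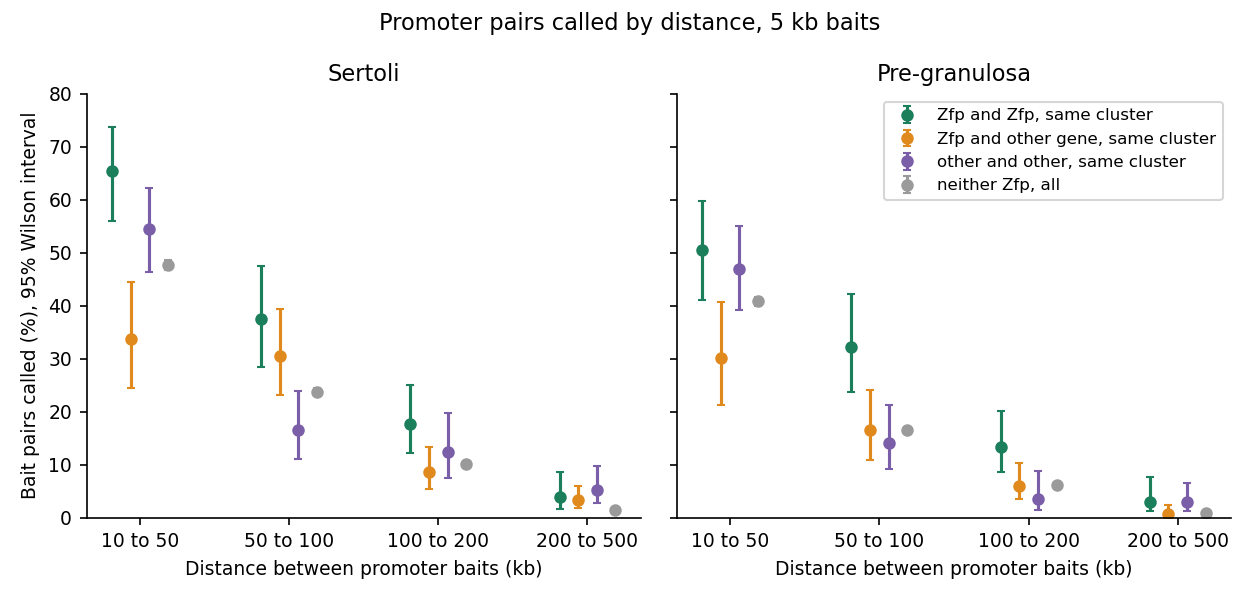
Share of promoter pairs called (y axis, percent, 95% Wilson intervals) by the distance between the 5 kb baits (x axis, kb), for Sertoli (left) and pre-granulosa cells (right). Pairs of Zfp promoters in a cluster (green) start at 65.4% and 50.5% and lie above mixed pairs of the same clusters (orange) in each class, although intervals overlap beyond 50 kb; purple pairs are other genes of the clusters and grey pairs hold no Zfp gene.

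Over all distances, 164 of 468 same-cluster Zfp pairs were called in at least 1 cell type, 135 in Sertoli and 107 in pre-granulosa cells, with 78 in both. Outside clusters 4 further Zfp pairs were called, with Zfp248 and Zfp9 (9.13 Sertoli, 7.32 pre-granulosa) on chromosome 6, Zfp574 and Zfp526 (4.86 and 7.66) on chromosome 7, and Zfp445 and Zfp105 on chromosome 9 in 2 of them. The highest pair was Zfp553 with Zfp771, 11.9 kb apart, at 36.6 in Sertoli and 30.4 in pre-granulosa cells. Zfp324 with Zfp446 reached 32.8 and 25.7 at 15.7 kb. Zfp316 with Zfp853 followed at 23.0 in Sertoli cells but 5.65 in pre-granulosa cells. Another bait pair of these genes, 21.1 kb apart, was more even at 18.3 and 9.40. Zfp551 with Zfp606 scored 9.93 in Sertoli and 21.9 in pre-granulosa cells at 54.1 kb, and 7.91 and 7.41 through another bait pair. Zfp579 with the bin of Zfp524, which also holds the Fiz1 promoter, reached 21.6 in Sertoli and 15.6 in pre-granulosa cells. The leading pairs thus differed in how even their scores were.

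The best pairs of other clusters also varied in balance. Zfp93 with Zfp61 scored 20.9 in Sertoli and 11.3 in pre-granulosa cells. Zfp59 with Zfp850, 140 kb apart, scored 14.0 in Sertoli cells against 0.0116, the lowest pre-granulosa score among the strongest pairs of the clusters. Zfp212 with Zfp956 scored 12.1 and 0.915. On the pre-granulosa side, Zfp141 with Zfp975 scored 5.98 in Sertoli and 16.1 in pre-granulosa cells at 184 kb, and Zfp599 with Zfp810 6.03 and 10.2. Zfp120 with Zfp937 was called in pre-granulosa cells only, at 6.17 against 3.43. Zfp426 with Zfp266 (17.3 and 15.5), Zfp773 with Zfp418 (18.3 and 13.9), Zfp787 with Zfp444 (14.7 and 11.5), Zfp984 with Zfp933 (11.5 and 8.35), Zfp157 with Zfp68 (7.30 and 10.9) and Zfp869 with Zfp963 (6.83 and 6.74) were called in both. Zfp882 with Zfp617 (9.37 and 4.47), Zfp658 with Zfp819 (5.92 and 1.96) and Zfp663 with Zfp334 (5.84 and 2.79) were called in Sertoli cells.

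The Zfp84 to Zfp146 cluster had the most called promoter pairs, 47 of 131 bait pairs (35.9%) by the Sertoli score and 41 (31.3%) by the pre-granulosa score. Some smaller clusters had higher shares, such as 7 and 5 of 8 pairs (87.5% and 62.5%) in Zfp12 to Zfp853. It lies at chr7:29767474-30172436 (mm10), spans 405 kb and holds, in order, Zfp84, Zfp30, Zfp790, Zfp940, Zfp420, Zfp27, Zfp383, Zfp74, Zfp568, Zfp14, Zfp82, Zfp260, Zfp566, Zfp382 and Zfp146. Of its 102 gene pairs at least 10 kb apart, 45 were called in Sertoli and 42 in pre-granulosa cells, 37 of them in both. Zfp568, a KRAB zinc finger protein known to repress a placental transcript of Igf2, was linked to the same 12 of 14 possible partners in both cell types, 10 of them through the same pair of baits. The other 2, Zfp260 and Zfp566, share a bin, and it was called with different baits of Zfp568 in the 2 cell types. Zfp420 had 10 and 9 of 13. Zfp146, at the end of the cluster, had 3 and 2 of 14.

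Within it, Zfp30 and Zfp420 scored 17.0 in Sertoli and 21.2 in pre-granulosa cells across 76.4 kb, passing over Zfp790 and Zfp940. Zfp420 and Zfp27 scored 16.0 and 20.4, and Zfp30 and Zfp568 scored 16.1 and 12.1 although they lie 199 kb apart. Some pairs were strong in 1 cell type. Zfp84 and Zfp383 scored 3.52 in Sertoli and 12.7 in pre-granulosa cells, and Zfp82 and the shared bin of Zfp260 and Zfp566 scored 3.40 and 13.0. Zfp420 and Zfp568 scored 16.4 and 5.98. The 9 genes from Zfp84 to Zfp568 were linked in 26 of 34 pairs in each cell type, 25 of them the same pairs. The 6 genes from Zfp14 to Zfp146 were linked in 9 and 7 of 14 pairs. Between these groups 10 and 9 of 54 pairs were called, and without Zfp568 6 and 5 of 48. This division was chosen from the score matrix and has no test, and the pairs between the groups are also farther apart.

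**Figure D4:**
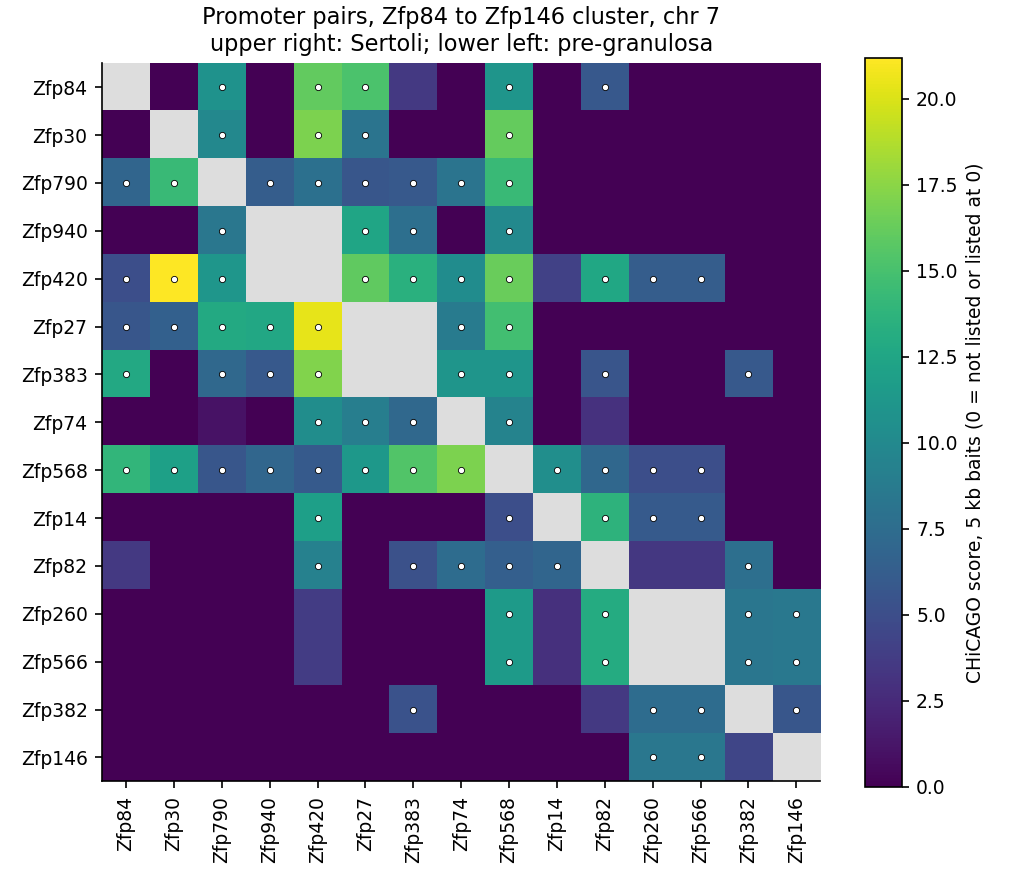
CHiCAGO scores (colour) of pairs of 5 kb promoter baits among the 15 genes of the Zfp84 to Zfp146 cluster in chromosome order, with Sertoli scores above the diagonal and pre-granulosa scores below it. White dots mark calls (45 Sertoli and 42 pre-granulosa gene pairs), and grey cells were not assessed because the pair shares a bin or lies under 10 kb apart; the row and column of Zfp568 hold 12 dots in each cell type.

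Single promoters with many contacts were described from the single-fragment baits. Zfp764-201 (chr7:127406202-127407227) had 35 listed contacts, the most of any Zfp bait, with 33 Sertoli and 18 pre-granulosa calls. They covered both sides of the promoter, from the bin at Zfp771, 154 kb away (5.40 Sertoli, 0.721 pre-granulosa), past the bins of Itgal, the integrin alpha L gene, at up to 11.4 in Sertoli and 5.73 in pre-granulosa cells, to a bin at 235 kb on the other side (6.22 and 0). Near the promoter both cell types scored high, with 19.0 and 11.7 at 8.48 kb. The neighbouring Zfp689-201 had 13 and 8 calls, Zfp747-201 13 and 4, and Zfp629-201 10 and 3. These 4 baits share a stretch of chromosome 7 and are not independent examples.

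Zfp663-201 had 15 Sertoli and 4 pre-granulosa calls, and its strongest contact lay 286 kb away at Cd40, which encodes a costimulatory receptor of the immune system, with 20.3 in Sertoli and 12.7 in pre-granulosa cells. Further Sertoli calls of this bait, each with a pre-granulosa score of at most 2.09, fell on Cdh22, a cadherin gene. Zfp609-201 had 12 and 3 calls, mostly along its own gene and at Rbpms2. Zfp146-201 had 13 and 7. Pre-granulosa calls were more numerous for Zfp385b-203 (3 Sertoli, 9 pre-granulosa), Zfp956-201 (4 and 9), Zfp513-207 (7 and 11), Zfp568-202 (7 and 11) and Zfp426-202 (8 and 11). Zfp568-202 met bins on 9 other Zfp genes, from Zfp84 to Zfp566, and none on Zfp382 and Zfp146, the last 2 genes of the cluster. These baits were named for their wide excess, and other ways of counting moved it. Taking equal numbers of contacts drops Sertoli calls alone, so by construction the difference of Sertoli minus pre-granulosa calls can only fall or stay there. The excess of Zfp663-201 went from 11 calls to 1 with 5 kb baits and to 2 at equal numbers of contacts, that of Zfp764-201 from 15 to 8 and 4, and that of Zfp747-201 from 9 to 6 and 1. The excess of Zfp609-201 went from 9 to 4 and 0, and that of Zfp629-201 from 7 to 4 and 0. From single-fragment to 5 kb baits the difference went from -4 to -7 for Zfp568-202, from -6 to -8 for Zfp385b-203 and from -5 to -8 for Zfp956-201, stayed at -4 for Zfp513-207 and turned from -3 to 1 for Zfp426-202. At a threshold of 7 it narrowed to -1 for Zfp568-202, -2 for Zfp385b-203, -3 for Zfp513-207 and -2 for Zfp426-202, and turned to 1 for Zfp956-201. The same threshold left an excess of 7 for Zfp764-201, 2 for Zfp609-201 and Zfp629-201, and 1 for Zfp663-201 and Zfp747-201.

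**Figure D5:**
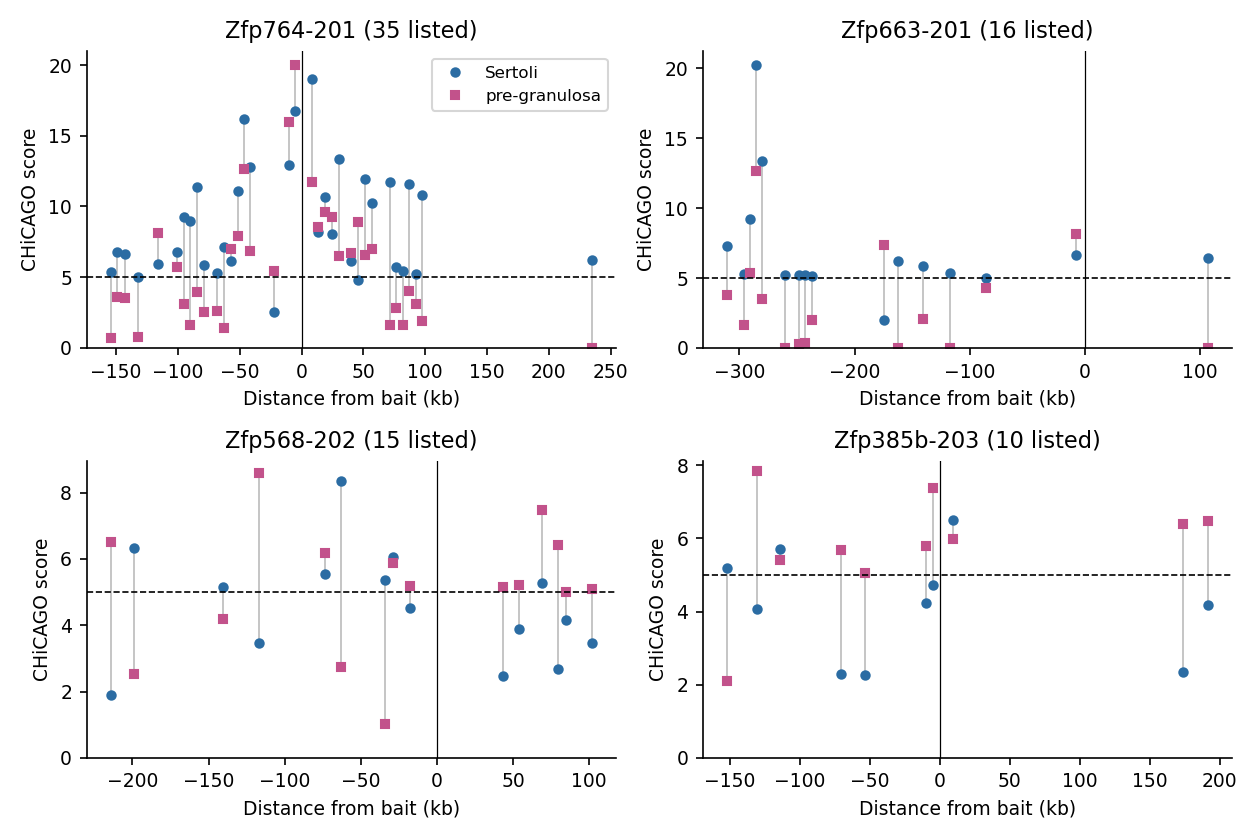
Scores of every listed contact (y axis) by signed distance from the bait (x axis, kb) for 4 single-fragment Zfp baits, Sertoli in blue circles and pre-granulosa in pink squares, with grey lines joining the 2 scores of a bin and the dashed line at the call threshold of 5. Zfp764-201 and Zfp663-201 have 33 and 15 Sertoli calls against 18 and 4 in pre-granulosa cells, and Zfp568-202 and Zfp385b-203 have 7 and 3 against 11 and 9.

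Of the highest single scores, most lay close to their promoter, and that of Zfp663-201 with Cd40 (20.3 in Sertoli cells at 286 kb) was the exception. Zfp513-207 and a bin 3.72 kb away, over its own gene and Snx17, scored 26.3 in Sertoli and 27.5 in pre-granulosa cells. Zfp872-201 reached 24.4 and 20.6 at 13.54 kb, Zfp426-208 17.1 and 9.98 at 3.75 kb, and Zfp426-202 8.68 and 17.5 with a bin at Zfp266. Zfp36-201 scored 14.3 in Sertoli and 24.3 in pre-granulosa cells at 4.72 kb. With 5 kb baits the highest Zfp score was that of Zfp341-201 and the promoter bin of Pxmp4, a peroxisomal membrane protein, at 53.8 and 33.3 across 10.2 kb.

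Among contacts of single-fragment baits, the 5 widest differences towards Sertoli cells, on the asinh scale, were all found at Zfp baits outside clusters. In the 5 kb table clustered pairs also differed widely, such as Zfp59 with Zfp850 above and Zfp865 with Zfp580 at 8.69 in Sertoli cells against 0. Zfp385b-211 scored 8.66 and 8.21 in Sertoli cells with bins 298 and 243 kb away that were listed at 0 in pre-granulosa cells. The same gene gave the widest opposite cases: Zfp385b-201 and Zfp385b-211 met 1 bin, 363 and 346 kb away, scoring 6.94 and 5.40 in the pre-granulosa table and 0 in the other. Zfp512b-206 and a bin at Zbtb46, a transcription factor gene of dendritic cells, scored 11.4 in Sertoli and 0.399 in pre-granulosa cells. Zfp217-201, at the promoter of a transcriptional repressor amplified in breast cancers, scored 6.50 and 0 at 206 kb, and Zfp644-206 6.47 and 0 at 110 kb. In the other direction, Zfp638-206 and a bin at Dysf, the dysferlin gene, scored 0.801 in Sertoli and 8.42 in pre-granulosa cells. Zfp324-204 scored 0.136 and 5.07, and Zfp956-201 0.251 and 5.15 with a bin at Zfp746. A listed score of 0 may be a missing value. Where the same contact was listed with 5 kb baits, each of these differences kept its direction.

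Among 35 Zfp genes with known roles, 10 had a single-fragment bait, with 57 listed contacts. The 40 Sertoli and 29 pre-granulosa calls were 70.2% and 50.9% of them, against 80.2% and 41.5% over all baits. Of the 10 genes, with calls summed over 14 baits, 6 had more Sertoli and 4 more pre-granulosa calls. Over all baits, counted singly rather than by gene, the shares were 65.2% and 22.0%. Zfp809, which recognises the primer binding site of murine retroviruses, had 7 Sertoli and 6 pre-granulosa calls. Its highest Sertoli score, 11.1, lay over Pigyl with 7.19 in pre-granulosa cells, and its highest pre-granulosa score was 7.84. Zfp445, which helps to keep genomic imprints, had 2 and 3, and its bin at 5.15 kb scored 15.7 and 7.52. Zfp704 had 5 and 0 calls, with pre-granulosa scores of up to 4.24. Zfp106, an RNA-binding protein, had 6 and 1 over 3 baits, Zfp217 6 and 2, Zfp292 3 and 1, Zfp36 3 and 4, Zfp382 1 and 0, and Zfp423, a developmental transcription factor, 0 and 1. Zfp143, seen with its 5 kb bait, met the promoter of Tmem41b at 15.3 and 17.6. Zfp202 with its 5 kb bait had 1 Sertoli and 4 pre-granulosa calls, all at bins named for Olfr genes.

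The genes that act with KRAB zinc finger proteins were taken as a list of 31, of which 7 had listed contacts of single-fragment baits on these chromosomes. They had 73 Sertoli and 46 pre-granulosa calls, 83.0% and 52.3% of their 88 listed contacts, against 80.2% and 41.5% over all baits. Both cell types called 31 of the 88 (35.2%), with a background of 21.7%. Ehmt1 and Atf7ip held 43 and 26 of the 88 listed contacts and 14 and 11 of those called in both. The shares of the list are thus mostly those of these genes. Ehmt1, an H3K9 methyltransferase, had 33 and 24, and Atf7ip, the partner of Setdb1, 24 and 13. Trim28 and Setdb1 had listed contacts with 5 kb baits only, with 6 Sertoli and 4 pre-granulosa calls for Trim28 and 4 and 1 for Setdb1. Trim28 lies beside the Zfp551 to Zfp446 cluster, and from its bait the Zfp324 promoter scored 6.39 in Sertoli and 7.40 in pre-granulosa cells and the Zfp446 promoter 6.97 and 4.89. Listed from the bait of Zfp324, the same pair with Trim28 scored 2.63 and 5.34, so the direction of capture moved a Sertoli call across the threshold. Contacts of Zfp baits with other chromosomes were rare, with 2 in each table, for Zfp819 and Zfp949, both called in pre-granulosa cells alone at up to 6.42. With single-fragment baits they were 0.334% of the rows of Zfp baits, and 0.932% of the rows of other baits. Among the 267 such contacts of other baits, 233 were called in pre-granulosa and 35 in Sertoli cells, so a pre-granulosa call was usual for this kind of contact.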

How the data were processed

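Both interaction tables deposited by the authors were read, with CHiCAGO scores as the unit, 1 score column for Sertoli and 1 for pre-granulosa cells. Per the submitters' processing notes the build is mm10. The aligner, the caller's settings, how libraries were joined and how reads matching several places were treated are not given in the sources used here, and the part of such reads in scores of similar Zfp genes was not tested. The authors' score was used as deposited, with a call at 5. Zfp baits, clusters and bins were derived from bait names and RefSeq GRCm38.p6 genes. Named contacts are those with the most listed contacts, the highest scores, the widest differences of asinh scores, the widest call excess and the best Zfp pair of each cluster. The members and lists were chosen with earlier results of these data known. The counting code was tested on simulated data. Software was Python 3.11.15, pandas 2.3.3, numpy 2.4.6, statsmodels 0.14.6 and matplotlib 3.10.9. Intervals are Wilson intervals for shares and order-statistic intervals for medians, at 95%. Alternatives were 5 kb baits, thresholds of 7 and 10, equal numbers of calls, other cluster rules and leaving out contacts at 0.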

Additional observations from a re-analysis of the deposited data

How the results depend on the processing

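No paired analysis was possible because the tables hold 1 column per cell type and no library of its own. With 5 kb baits the calls were 856 in Sertoli and 687 in pre-granulosa cells, the share in both was 35.8%, the inside shares were 74.2% and 77.5%, and the median distances 47.8 and 43.0 kb. A threshold of 7 left 171 and 100 calls with medians of 22.1 and 19.2 kb, and a threshold of 10 left 64 and 21 calls, 19.7% in both, a Sertoli inside share of 79.2% and medians of 27.8 and 17.5 kb. With equal numbers of calls Sertoli calls fell to 217 with a median of 25.0 kb, which turned the balance between the cell types. Other cluster rules kept the inside shares between 84.3 and 87.8%. Chosen after seeing the data, a threshold of 7 for same-cluster Zfp pairs at 10 to 50 kb gave 43.0% in Sertoli and 31.8% in pre-granulosa cells, against 26.5% and 21.7% for mixed pairs. The call excess of Zfp956-201 (Sertoli minus pre-granulosa) went from -5 to 1 at a threshold of 7, and that of Zfp426-202 from -3 to 1 with 5 kb baits. No library can be left out, so the spread between libraries is unknown.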
